A study of Rattus norvegicus with 4 samples.

Results

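The genes described here are the 44 genes of the rat hippocampus that were well covered by reads, stood lower in both fluoxetine samples than in both vehicle samples, and were not among 21 genes that were left out by name. RNA was sequenced from the hippocampus of adult male Wistar rats in 2 groups of 2 samples, and each sample pooled the tissue of 2 rats. The first group received fluoxetine at 12 mg/kg per day and the other the vehicle, 1% methylcellulose, both by oral gavage at 5 ml/kg from postnatal day (PND) 67 to PND 88. Tissue was taken at PND 128, when both groups had been without treatment for 40 days. The hippocampus was punched from frozen brain slices, so that a sample held neurons, glia and vessels, and fewer cells of a type cannot be told apart from less RNA per cell.

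The deposited table held 830 transcripts, of which 749 belonged to 474 genes with a gene ID, and it kept those that had passed the authors' limits of 0.05 for the p-value and 1.5 for the fold change. Each gene was represented by its transcript with most reads. The level used to choose the genes was the normalized expression (NE) of the table, which is the number of reads divided by transcript length and library size, and an NE of 1 equals 100 RPKM. Of the 474 genes, 207 had at least 100 reads over the 4 samples, and in 59 of these (28.5%) the higher fluoxetine NE lay under the lower vehicle NE. After 15 of the 59 were left out by name, 44 genes remained. Over all 474 listed genes, this order held in 185 (39.0%), and the opposite order, with both fluoxetine samples higher, held in 172 (36.3%). With reads scaled by TMM, a trimmed mean over the listed transcripts, 63 of the 207 genes (30.4%) stood lower with no overlap. The genes were thus selected on the NE values of these 4 samples, so their fold changes are a description and no p-value is given. The authors applied their p-value limit without adjustment for multiple comparisons. By the paper, most of the downregulated genes that it measured again by quantitative PCR in independent rats showed no change.

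Fluoxetine is a selective serotonin reuptake inhibitor, which blocks the serotonin transporter. Serotonin acts in the hippocampus through receptors that are mostly coupled to G proteins, and several of these raise or lower cyclic AMP (cAMP) in the cell. The 44 genes form no single pathway or complex, and they were sorted by what their proteins do into 14 signalling genes, 8 genes of transcription and the nucleus, 6 genes of channels, transporters and pumps, 7 genes of the cell surface and 9 other or little-known genes.

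The library totals behind NE lay between 12512583 and 14080345 reads, and the listed transcripts took 1.03 to 1.17% of them. The 44 genes together had 2503 and 2898 reads in fluoxetine samples 1 and 2, and 4978 and 5104 reads in vehicle samples 1 and 2. Per 10000000 reads of the library, these sums were 1777.7 and 2144.6 after fluoxetine and 3552.7 and 4079.1 after vehicle. In what follows, reads are raw counts given for sample 1 and then sample 2 of a group, and the log2 fold change of fluoxetine over vehicle with its standard error (SE) is from edgeR at TMM. TMM assumes that most transcripts are unchanged, which does not hold here, as all listed transcripts had passed the authors' limits for change. It gave lower fold changes for these genes than the library totals did.

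The median log2 fold change over the 44 genes was -1.23, and values ranged from -1.75 to -0.84. At the library totals the median was -1.12 and the range -1.61 to -0.74, since this scaling moved the median of all listed transcripts up by 0.11. For the 474 listed genes the median was 0.54 at TMM and 0.66 at the library totals. In NE, the mean of the fluoxetine samples was 40.0 to 67.5% lower than that of the vehicle samples, with a median of 54.2%, and 30 of the 44 genes were at or under 0.5 of the vehicle mean. For 42 of the 44 genes the difference of the means was larger than the SD of either group. The demand for no overlap largely fixes this, and RGD1306926 and Eya3 were the exceptions.

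**Figure D1:**
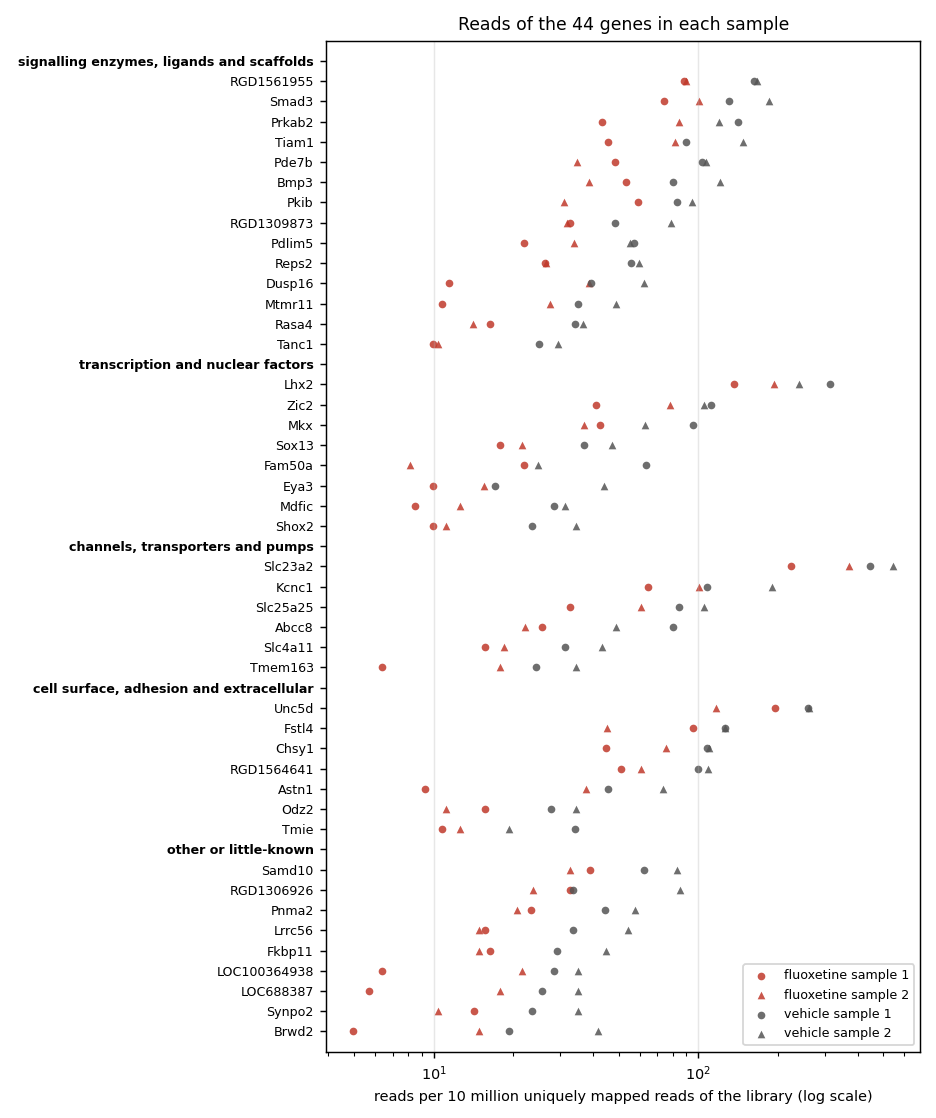
Reads per 10000000 reads of the library (log axis) of each of the 44 genes in fluoxetine samples 1 and 2 (red) and vehicle samples 1 and 2 (grey), circles marking sample 1 and triangles sample 2, sorted by role. Both red points lie to the left of both grey points in each row, which the choice of the genes fixed, and the distance varies from near 0, as in Dusp16 and RGD1306926, to wide, as in Tanc1 and Mdfic.

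Most of these genes were not abundant. The reads summed over the 4 samples had a median of 226 and ran from 100 to 2126. Of the 44 genes, 8 had at least 500 reads, 19 had fewer than 200 and 17 lay between. Per length, Lhx2 had the highest vehicle mean, at an NE of 0.305, followed by Kcnc1 at 0.277 and Tiam1 at 0.229, and Synpo2 had the lowest, at 0.00751. The genes just inside the minimum were Tanc1 with 100 reads and Tmie with 104, and those just outside were Rapgef3 with 99 and Ptrf with 98. The lower vehicle NE over the higher fluoxetine NE had a median of 1.465, and it was narrowest in Dusp16 (1.02), RGD1306926 (1.03) and Kcnc1 (1.06) and widest in Tanc1 (2.41), Mdfic (2.27) and Lrrc56 (2.15). Of the genes kept out by overlap alone, Atp2b4 (0.941) and Rps18 (0.888) came closest. In all, 70 of the 207 genes had a lower fluoxetine mean, and 11 of the 70 had groups that overlapped.

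**Figure D2:**
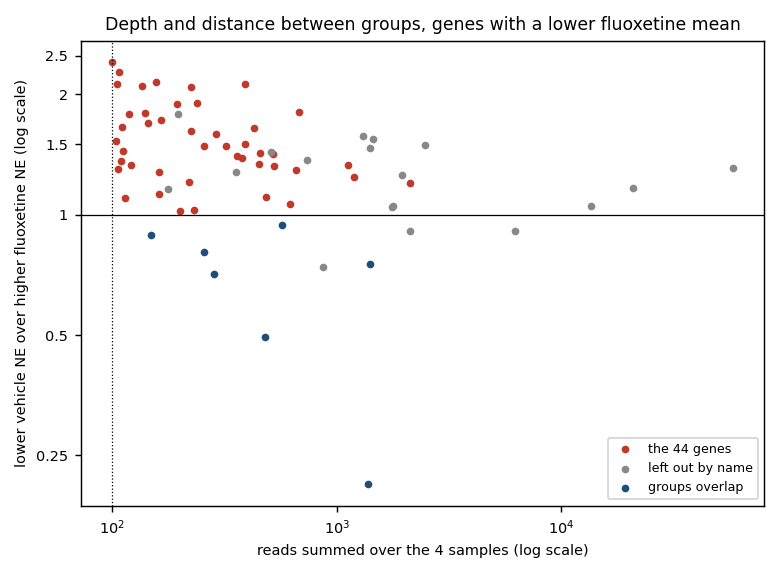
Lower vehicle NE divided by higher fluoxetine NE (log axis) against the reads summed over the 4 samples (log axis), for 69 of the 70 genes with at least 100 reads and a lower fluoxetine mean. The 44 genes (red) lie above 1 by their choice, the genes left out by name are grey, and 1 gene with 0 reads in a vehicle sample is not drawn.

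The 14 signalling genes stood at a median log2 fold change of -1.19 at TMM and -1.03 at the library totals, with a range of -1.53 to -0.98 at TMM. Among them were enzymes, inhibitors and ligands of cAMP, diacylglycerol, TGF-beta, AMP-activated kinase, small GTPase and MAP kinase pathways.

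Of the signalling genes on cAMP, Pde7b encodes a phosphodiesterase that breaks down cAMP (gene ID 140929, chr1:15701126-15762878, 10 exons). It had 68 and 47 reads in the fluoxetine samples and 144 and 134 in the vehicle samples. Its samples lay close together within each group, and the lower vehicle NE was 2.13 times the higher fluoxetine NE. A log2 fold change of -1.44 (SE 0.49) resulted. Pkib, an inhibitor of the catalytic subunit of protein kinase A, had an NE of 0.0380 ± 0.0166 against 0.0747 ± 0.00687 in vehicle (SD, n = 2) and a log2 fold change of -1.06 (SE 0.56), which was -1.74 without fluoxetine sample 1. Cyclic AMP is made by adenylate cyclases, broken down by phosphodiesterases and read by protein kinase A and by the Epac proteins, which are exchange factors for Rap. Of 31 genes listed for cAMP signalling, 5 were in the table. Pde7b, Pkib and Abcc8 were lower by the choice of the 44 genes, and Adcy1, a calcium-stimulated adenylate cyclase left out by name, met the same limits. Abcc8 was on the list, although it encodes a subunit of potassium channels and none of the proteins just named. The gene outside the choice was Rapgef3, which encodes Epac1 and stood lower with no overlap, as did 39.0% of all listed genes. It had 6 and 23 reads after fluoxetine and 33 and 37 after vehicle.

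Of the genes on the TGF-beta and BMP pathway, in which secreted ligands bind receptor kinases that phosphorylate SMAD proteins, Smad3 encodes a SMAD that carries the TGF-beta signal to the nucleus (gene ID 25631, chr8:67828683-67884365, 7 exons). It had 104 and 137 reads in the fluoxetine samples and 184 and 232 in the vehicle samples. Vehicle sample 2 was the highest of the 4 and fluoxetine sample 1 the lowest, and the log2 fold change was -0.98 (SE 0.44). Bmp3, a secreted ligand of the BMP family that is known to oppose other BMPs (gene ID 25667, chr14:12065635-12090295, 3 exons), had 75 and 52 reads in the fluoxetine samples and 112 and 152 in the vehicle samples. Here fluoxetine sample 2 was the lowest and vehicle sample 2 the highest, with a log2 fold change of -1.22 (SE 0.50). Of 33 genes listed for the pathway, 3 were in the table, of which Smad3 and Bmp3 were lower by choice. The other was Amhr2, the receptor of anti-Mullerian hormone, which stood lower with no overlap, as did 39.0% of all listed genes, on only 19 reads, with 0 and 3 reads after fluoxetine and 7 and 9 after vehicle.

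RGD1561955, which the current annotation names Dgkh, encodes diacylglycerol kinase eta, an enzyme that turns the second messenger diacylglycerol into phosphatidic acid (gene ID 361076, chr15:59730745-59883806, 29 exons). It had 124 and 121 reads in the fluoxetine samples and 227 and 209 in the vehicle samples. The samples of a group were nearly equal, and the log2 fold change was -1.01 (SE 0.43). Its 6 listed transcript models, which share most of their exons, gave ratios of fluoxetine over vehicle between 0.53 and 0.541 at the library totals. Prkab2 encodes a beta subunit of AMP-activated protein kinase, a sensor of cellular energy (gene ID 64562, chr2:192498011-192510670, 7 exons). It had 61 and 114 reads in the fluoxetine samples and 198 and 150 in the vehicle samples. Fluoxetine sample 1 was the lowest and vehicle sample 1 the highest, and the log2 fold change was -1.19 (SE 0.51).

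Tiam1 encodes an exchange factor that activates the GTPase Rac and shapes dendritic spines (gene ID 304109, chr11:30112262-30133783, 3 exons). It had 64 and 110 reads in the fluoxetine samples and 126 and 184 in the vehicle samples. Fluoxetine sample 2 came close to vehicle sample 1, whose NE was 1.10 times as high, and the log2 fold change was -1.03 (SE 0.50). Rasa4, a calcium-dependent GTPase-activating protein of Ras, had an NE of 0.00543 ± 0.000573 against 0.0127 ± 0.000636 in vehicle (SD, n = 2) and a log2 fold change of -1.33 (SE 0.47).

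Tanc1 encodes a scaffold protein of the postsynaptic density (gene ID 311055, chr3:41427948-41448170, 2 exons). It had 14 and 14 reads in the fluoxetine samples and 35 and 37 in the vehicle samples. The samples within each group were almost equal, and among the 44 genes it had the widest distance between the groups. Its log2 fold change was -1.53 (SE 0.46), and the ratio of the pooled reads was 0.374 with a 95% counting interval of 0.233 to 0.586. For Slc23a2, the gene with most reads, this interval was 0.549 to 0.655 around 0.60. Such intervals cover counting error only, since they pool the reads of both samples of a group and leave out the spread between samples. As reads were not marked by molecule, even the counting error may be larger.

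The other signalling genes were Mrap2, an accessory protein of melanocortin receptors that the table names RGD1309873, Pdlim5, a PDZ and LIM domain protein that binds protein kinase C, Reps2, which acts in endocytosis, Dusp16, a phosphatase of MAP kinases, and Mtmr11, a myotubularin-related protein. RGD1309873 had an NE of 0.0669 ± 0.00124 against 0.132 ± 0.0449 in vehicle (SD, n = 2), and Pdlim5 one of 0.0163 ± 0.00496 against 0.0327 ± 0.000806 in vehicle (SD, n = 2). Reps2 stood at 0.0169 ± 0.000163 against 0.0368 ± 0.00192 in vehicle (SD, n = 2), where the samples of a group were nearly equal. Dusp16 stood at 0.0133 ± 0.0102 against 0.0271 ± 0.00870 in vehicle (SD, n = 2) and Mtmr11 at 0.0211 ± 0.0131 against 0.0465 ± 0.0108 in vehicle (SD, n = 2), and in both the fluoxetine samples differed widely. The log2 fold change of Dusp16 was -1.18 (SE 0.67), and it ran from -2.28 without fluoxetine sample 2 to -0.61 without fluoxetine sample 1. That of Mtmr11 was -1.29 (SE 0.58), or -2.10 without fluoxetine sample 2, that of Reps2 -1.24 (SE 0.45), that of Pdlim5 -1.14 (SE 0.47) and that of RGD1309873 -1.08 (SE 0.48).

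**Figure D3:**
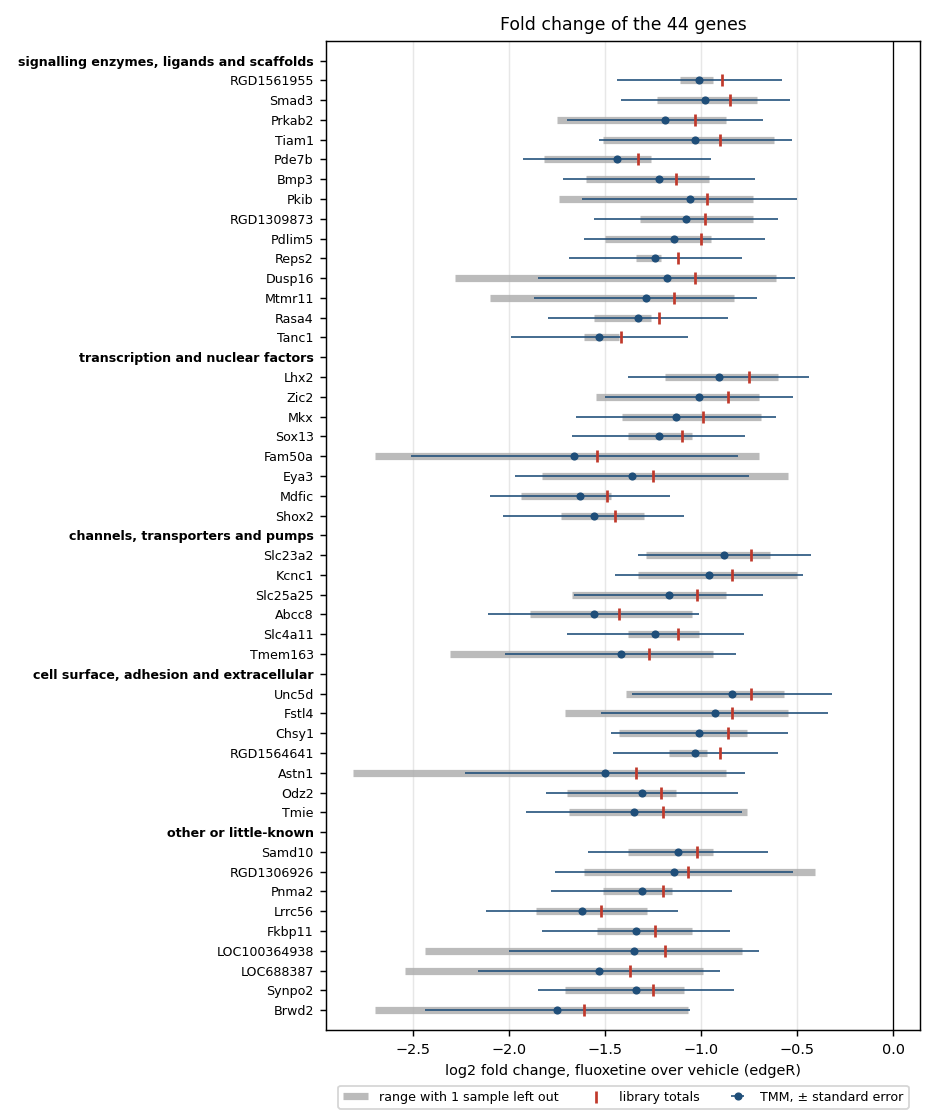
Log2 fold change of fluoxetine over vehicle for the 44 genes, sorted by role, from edgeR at TMM (blue points with bars of 1 standard error) and at the library totals (red ticks), with the range over fits that leave out 1 sample in grey. All 44 points lie under 0 by the choice of the genes, the red ticks lie to the right of the points, and the grey bars are widest in Fam50a, Astn1, Dusp16 and LOC100364938.

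The 8 genes of transcription and the nucleus stood at a median log2 fold change of -1.29 at TMM and -1.18 at the library totals, with a range of -1.66 to -0.91 at TMM. Of these, 4 encode homeobox or zinc finger factors known from the patterning of the embryo (Lhx2, Zic2, Mkx and Shox2).

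Lhx2, a LIM homeobox factor that is needed for the embryonic hippocampus to form (gene ID 296706, chr3:18117083-18132367, 3 exons), had 192 and 262 reads in the fluoxetine samples and 442 and 302 in the vehicle samples. Vehicle sample 1 was the highest, and fluoxetine sample 2 lay nearest to vehicle sample 2. The log2 fold change was -0.91 (SE 0.47). Zic2, a zinc finger factor of the forebrain midline (gene ID 361096, chr15:107609060-107612572, 3 exons), had 58 and 106 reads in the fluoxetine samples and 157 and 131 in the vehicle samples. Fluoxetine sample 1 was far below the other samples, and the log2 fold change was -1.01 (SE 0.49). Shox2, a homeobox factor found in the thalamus (gene ID 25546, chr2:156879883-156886906, 4 exons), had 14 and 15 reads in the fluoxetine samples and 33 and 43 in the vehicle samples. The samples of the fluoxetine group were nearly equal, and the log2 fold change was -1.56 (SE 0.47). Of its 4 listed transcripts, 3 stood lower with no overlap, and the other had 2 and 5 reads after fluoxetine and 4 and 22 after vehicle.

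Zic2 and Shox2 are also markers of the thalamus and habenula, which lie next to the hippocampus. Of the 17 markers listed for this tissue, 3 were in the table (Zic2, Shox2 and Prkcd). Zic2 and Shox2 were lower by choice, Prkcd met the same limits, and 39.0% of all listed genes stood lower with no overlap. Their summed level per 10000000 reads was 163 and 154 after fluoxetine and 289 and 360 after vehicle. Prkcd, protein kinase C delta, which was left out by name, had 158 and 87 reads after fluoxetine and 215 and 276 after vehicle. The part of neighbouring tissue in the levels of the 44 genes was not tested, and markers not in the table were not analysed here.

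Mdfic, which encodes a protein that binds and restrains transcription factors (gene ID 362325, chr4:41241856-41321515, 5 exons), had 12 and 17 reads in the fluoxetine samples and 40 and 39 in the vehicle samples. The samples of a group were close, the lower vehicle NE was 2.27 times the higher fluoxetine NE, and the log2 fold change was -1.63 (SE 0.47). Eya3, a transcriptional coactivator with phosphatase activity (gene ID 313027, chr5:152438121-152457192, 7 exons), had 14 and 21 reads in the fluoxetine samples and 24 and 55 in the vehicle samples. Vehicle sample 1 lay near fluoxetine sample 2, and vehicle sample 2 stood apart from the others. The log2 fold change of -1.36 (SE 0.61) became -0.55 without vehicle sample 2. Fam50a, a nuclear protein linked to splicing (gene ID 293862, chrX:160291605-160292022, 2 exons), had 31 and 11 reads in the fluoxetine samples and 89 and 31 in the vehicle samples. Sample 1 was about the same factor above sample 2 in both groups, and fluoxetine sample 1 and vehicle sample 2 had the same number of reads. The log2 fold change was -1.66 (SE 0.85), and leaving out fluoxetine sample 1 gave -2.70, vehicle sample 1 -0.70 and vehicle sample 2 -2.25. Mkx, a homeobox factor of tendon, had an NE of 0.0328 ± 0.00327 against 0.0653 ± 0.0189 in vehicle (SD, n = 2), and Sox13, an SRY-related factor, one of 0.0105 ± 0.00141 against 0.0226 ± 0.00382 in vehicle (SD, n = 2), with log2 fold changes of -1.13 (SE 0.52) and -1.22 (SE 0.45).

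The 6 genes of channels, transporters and pumps stood at a median log2 fold change of -1.20 at TMM and -1.07 at the library totals, with a range of -1.56 to -0.88 at TMM.

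Slc23a2 encodes the sodium-dependent transporter that brings vitamin C into neurons (gene ID 50622, chr3:119796376-119842068, 15 exons). It had 315 and 502 reads in the fluoxetine samples and 626 and 683 in the vehicle samples, which was the highest number of reads of the 44 genes. Fluoxetine sample 1 was the lowest, and the log2 fold change was -0.88 (SE 0.45). Its listed models gave ratios of fluoxetine over vehicle from 0.45, for a model of 4 exons inside the gene with 31 and 58 reads against 96 and 95, to 0.601. Slc25a25, a carrier of ATP-Mg and phosphate across the inner mitochondrial membrane (gene ID 246771, chr3:11541987-11545386, 5 exons), had 46 and 82 reads in the fluoxetine samples and 118 and 132 in the vehicle samples. Vehicle sample 2 was the highest, with a log2 fold change of -1.17 (SE 0.49). A shorter model of 2 exons of Slc25a25 had 9 and 15 reads after fluoxetine and 41 and 51 after vehicle, a ratio of 0.25 against 0.492 for the model with most reads. Of 20 genes listed for energy sensing and mitochondrial carriers, 5 were in the table. Prkab2 and Slc25a25 were lower by choice, Ppargc1a and Eef2k stood lower with no overlap, as did 39.0% of all listed genes, and Dbi had a lower fluoxetine mean with overlap. Ppargc1a, a coactivator of mitochondrial genes, had 6 and 0 reads after fluoxetine and 17 and 19 after vehicle.

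Kcnc1 encodes the potassium channel Kv3.1, which lets neurons fire at high rates (gene ID 25327, chr1:96954283-96959189, 2 exons). It had 91 and 137 reads in the fluoxetine samples and 151 and 238 in the vehicle samples. Fluoxetine sample 2 came close to vehicle sample 1, and the log2 fold change of -0.96 (SE 0.49) became -0.50 without vehicle sample 2. Of 20 listed voltage-gated potassium and sodium channels, 2 were in the table, and the other was Scn2a1, with 2 and 3 reads against 16 and 16. Abcc8 encodes SUR1, the sulfonylurea receptor subunit of ATP-sensitive potassium channels, which couple membrane voltage to the energy state of the cell (gene ID 25559, chr1:96656949-96670244, 4 exons). It had 36 and 30 reads in the fluoxetine samples and 112 and 61 in the vehicle samples. Vehicle sample 1 was the highest, both fluoxetine samples were similar, and the log2 fold change was -1.56 (SE 0.55). The models of Abcc8 and Kcnc1 lie 284038 bases apart on chromosome 1, on opposite strands. Tmem163, a zinc transporter of synaptic vesicles (gene ID 360839, chr13:40144385-40152662, 3 exons), had 9 and 24 reads in the fluoxetine samples and 34 and 43 in the vehicle samples. Fluoxetine sample 1 was well below fluoxetine sample 2, and the log2 fold change was -1.42 (SE 0.60), or -2.31 without fluoxetine sample 2. Slc4a11, a membrane transporter of the bicarbonate transporter family, had an NE of 0.0246 ± 0.00293 against 0.0536 ± 0.0120 in vehicle (SD, n = 2) and a log2 fold change of -1.24 (SE 0.46).

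The 7 genes of the cell surface, adhesion and the extracellular space stood at a median log2 fold change of -1.03 at TMM and -0.90 at the library totals, with a range of -1.50 to -0.84 at TMM.

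Unc5d encodes a netrin receptor that guides axons and migrating neurons (gene ID 306534, chr16:67102595-67688733, 18 exons). It had 275 and 158 reads in the fluoxetine samples and 364 and 328 in the vehicle samples. Fluoxetine sample 2 was far below the others, and the log2 fold change was -0.84 (SE 0.52), the smallest in size of the 44 genes. Its 4 listed models gave ratios of fluoxetine over vehicle from 0.50 to 0.598. Of 26 listed axon guidance receptors and ligands, 3 were in the table. Beside Unc5d, which was lower by choice, these were the ephrins Efna4, with 6 and 5 reads against 18 and 15, and Efna5, with 2 and 0 against 2 and 12, both lower with no overlap, as were 39.0% of all listed genes. For Efna5 the lower vehicle sample and the higher fluoxetine sample had the same 2 reads, and the order rests on the size of the libraries. Fstl4, a secreted protein of the follistatin-like family (gene ID 303130, chr10:38190597-38635243, 15 exons), had 134 and 61 reads in the fluoxetine samples and 176 and 158 in the vehicle samples. As in Unc5d, the vehicle samples were close to each other and fluoxetine sample 2 was the lowest. Fstl4 had a log2 fold change of -0.93 (SE 0.59), which was -1.71 without fluoxetine sample 1.

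Chsy1, an enzyme that builds the chondroitin sulfate chains of extracellular proteoglycans (gene ID 292999, chr1:120592962-120599026, 2 exons), had 63 and 102 reads in the fluoxetine samples and 151 and 138 in the vehicle samples. The lowest was fluoxetine sample 1, and the log2 fold change was -1.01 (SE 0.46). RGD1564641, which the current annotation names Heg1, encodes a transmembrane protein needed for heart and vessel development (gene ID 689710, chr11:68828248-68857388, 7 exons). It had 72 and 82 reads in the fluoxetine samples and 140 and 136 in the vehicle samples. The samples of a group were close, and the log2 fold change was -1.03 (SE 0.43). Tmie, a membrane protein of the mechanotransduction complex of hair cells (gene ID 501061, chr8:115254716-115261631, 3 exons), had 15 and 17 reads in the fluoxetine samples and 48 and 24 in the vehicle samples. Vehicle sample 1 stood above vehicle sample 2, and the log2 fold change was -1.35 (SE 0.56), or -0.76 without vehicle sample 1. Odz2, now named Tenm2, encodes teneurin 2, an adhesion protein of synapses. Its NE was 0.0274 ± 0.00655 against 0.0637 ± 0.00946 in vehicle (SD, n = 2) and its log2 fold change -1.31 (SE 0.50).

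Astn1 encodes astrotactin 1, with which migrating neurons hold on to glia, and was represented by a short fragment (gene ID 304900, chr13:73871128-73871904, 2 exons). It had 13 and 51 reads in the fluoxetine samples and 64 and 92 in the vehicle samples. Fluoxetine sample 1 was far below fluoxetine sample 2, and the log2 fold change of -1.50 (SE 0.73) ran from -2.81 without fluoxetine sample 2 to -0.87 without fluoxetine sample 1. LOC100364938 (gene ID 100364938, chr13:73868399-73871945, 2 exons), a gene without a current symbol, had 9 and 29 reads in the fluoxetine samples and 40 and 44 in the vehicle samples, with a log2 fold change of -1.35 (SE 0.65) that was -2.44 without fluoxetine sample 2. The span of the Astn1 fragment, 777 bases with its intron, lies wholly inside that of LOC100364938, which is on the opposite strand. Use of the strand in counting is not stated in the paper or labels, and the positions of the exons are not in the table, so how far both count the same reads was not tested.

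The 9 other or little-known genes stood at a median log2 fold change of -1.34 at TMM and -1.24 at the library totals, with a range of -1.75 to -1.12 at TMM. Brwd2, now named Wdr11, a protein with WD repeats (gene ID 309016, chr1:188860243-188862552, 2 exons), had 7 and 20 reads in the fluoxetine samples and 27 and 52 in the vehicle samples. Sample 1 was the lower one in both groups, and the log2 fold change of -1.75 (SE 0.69) was the lowest of the 44 genes. It was -2.70 without fluoxetine sample 2 and -1.07 without vehicle sample 2. Lrrc56, a protein with leucine-rich repeats (gene ID 365389, chr1:201390131-201404485, 13 exons), had 22 and 20 reads in the fluoxetine samples and 47 and 68 in the vehicle samples. The fluoxetine samples were nearly equal, and the log2 fold change was -1.62 (SE 0.50). LOC688387 (gene ID 688387, chr15:73869-166655, 5 exons), which has no current symbol, had 8 and 24 reads in the fluoxetine samples and 36 and 44 in the vehicle samples. The lowest was fluoxetine sample 1, with a log2 fold change of -1.53 (SE 0.63) that was -2.54 without fluoxetine sample 2. Fkbp11, a peptidyl-prolyl isomerase of the endoplasmic reticulum (gene ID 300211, chr7:137491004-137492801, 2 exons), had 23 and 20 reads in the fluoxetine samples and 41 and 56 in the vehicle samples. Its fluoxetine samples were close together, and the log2 fold change was -1.34 (SE 0.49).

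The other genes of this group were given by their NE. RGD1306926, now named Faap100, a protein of the Fanconi anaemia complex for DNA repair, stood at 0.0510 ± 0.0115 against 0.108 ± 0.0666 in vehicle (SD, n = 2). Its vehicle sample 1 had 47 reads, 1 more than fluoxetine sample 1, and its log2 fold change of -1.14 (SE 0.62) became -0.41 without vehicle sample 2. Samd10, a protein with a SAM domain, stood at 0.0272 ± 0.00349 against 0.0552 ± 0.0113 in vehicle (SD, n = 2), Pnma2, a neuronal protein of the paraneoplastic antigen family, at 0.0275 ± 0.00240 against 0.0634 ± 0.0117 in vehicle (SD, n = 2), and Synpo2, an actin-binding protein, at 0.00314 ± 0.000693 against 0.00751 ± 0.00210 in vehicle (SD, n = 2). Their log2 fold changes were -1.12 (SE 0.47), -1.31 (SE 0.47) and -1.34 (SE 0.51).

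Differences between the samples of 1 group were not used to choose direction, although the demand for no overlap favours genes with a small spread. The 44 genes were mostly higher in sample 2 of the vehicle group. In NE, vehicle sample 2 was above vehicle sample 1 in 36 of 44 genes (81.8%) and in 79 of the 163 other listed genes with at least 100 reads (48.5%). Of these 163, 137 had a higher fluoxetine mean and 26 a lower one. The 15 genes left out by name with the same order between groups were also mostly higher in vehicle sample 2. These were Olfm1, Syn2, Pdyn, Hba-a2, Hbb, Cpne4, Negr1, Stxbp6, Prkcd, Frem3 and Src, while Adcy1, Jun, Col6a1 and Mmp16 were lower in it. A higher vehicle sample 2 was thus not particular to the 44 genes. Fluoxetine sample 2 was above fluoxetine sample 1 in 27 of 44 (61.4%), against 70 of 163 (42.9%). The median ratio of sample 2 over sample 1 was 1.24 in vehicle and 1.18 in fluoxetine for the 44 genes, and 0.98 and 0.871 for the others. At TMM the shares for vehicle were 27 of 44 (61.4%) against 67 of 163 (41.1%), and for fluoxetine 23 of 44 (52.3%) against 58 of 163 (35.6%), so that the shares moved with the scaling for both sets. Sample 2 was the higher one in both groups for 22 genes, in vehicle alone for 14, in fluoxetine alone for 5 and in neither for 3. The genes with the largest ratio between the fluoxetine samples were Astn1 (4.09), Dusp16 (3.39), LOC100364938 (3.36) and LOC688387 (3.12). The ratio lay outside 0.5 to 2 in 9 of 44 genes in fluoxetine (20.5%) and in 4 of 44 in vehicle (9.09%), against 47.2% and 29.4% of the other genes.

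**Figure D4:**
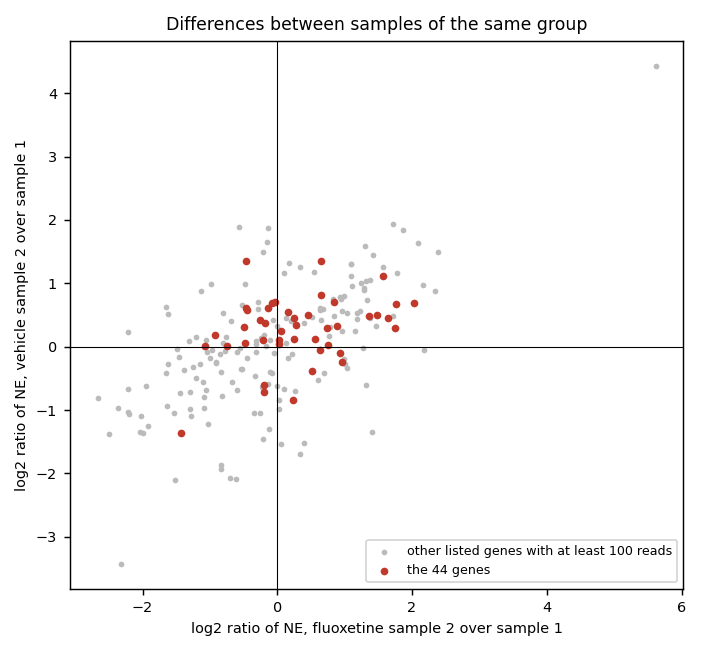
Log2 ratio of NE of sample 2 over sample 1 in the vehicle group against the same ratio in the fluoxetine group, for the 44 genes (red) and 162 of the 163 other listed genes with at least 100 reads (grey), as 1 gene with 0 reads in a sample is not drawn. The red points are mostly above the horizontal line at 0, in 36 of 44 genes, and lie nearer to the centre than many grey points.

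Markers of other cell types and regions were read beside these genes, as summed levels per 10000000 reads. Over all 474 listed genes, 258 (54.4%) had a higher fluoxetine mean NE, 36.3% stood higher with no overlap and 39.0% lower with no overlap. Of 16 oligodendrocyte markers, 10 were in the table, with a higher fluoxetine mean in 10 of 10, but with no overlap in only 1, and with sums of 8530 and 19600 after fluoxetine and 6180 and 11700 after vehicle. Of 8 CA1 markers, 5 were in the table, with a higher fluoxetine mean in 5 of 5, again with no overlap in only 1, and sums of 3960 and 9580 against 3450 and 5060. The 2 listed markers of the dentate gyrus, Pdyn and Stxbp6, stood lower with no overlap, at sums of 533 and 355 against 731 and 799. Both were among the genes left out by name. Of the 2 listed markers of CA2 and CA3, Tiam1 was lower by choice, and Cpne4, left out by name, had 217 and 192 against 334 and 337. The 3 listed red blood cell genes, also left out by name, summed to 572 and 478 against 560 and 1740, where vehicle sample 2 stood apart. The single listed endothelial and mural marker, Ptrf, and the single oligodendrocyte precursor marker, Cspg4, stood lower with no overlap, at 28 reads in all for Cspg4. The 2 markers of each of the next lists went opposite ways. Of the meningeal fibroblast markers, Dcn had a log2 fold change of 0.78 and Col6a1 of -1.04. Of the interneuron markers, Sst, with 9677 reads, had 0.54 and Nos1, with 89 reads, had -1.78. The choroid plexus and ependyma markers Clic6 and Kl had only 6 and 8 reads. None of the 10 astrocyte and 9 microglia markers was in the table, and these were not analysed here. The part of such shifts in cell types or regions in the levels of the 44 genes was not tested.

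A transcript model of another mammal stood behind many of the 44 genes. For 21 of the 44 genes (47.7%) the model was an Ensembl transcript of another mammal placed on the rat genome, 9 from mouse, 8 from human and 4 from others, against 38 of the 163 other genes (23.3%), a difference that was not tested. The models of the 44 genes had a median length of 1200 bases, from 260 to 3908, and a median of 4 exons, so that many cover only part of their gene. A length under 1000 bases was found in 47.7% of them and in 44.2% of the other genes. Tiam1, Fam50a and Eya3 had models on the strand opposite to the current gene, which were 3 of the 34 genes that could be matched (8.82%), against 0 of 122 other genes. The current strand is that of the assembly GRCr8, so a change of the assembly cannot be told apart from a model on the wrong strand. The 44 genes lie on 17 chromosomes. For the 16 genes with several listed transcripts, 51 of 52 transcripts stood lower with no overlap. The share of 39.0% over all listed genes counts a single transcript per gene, and the share over all listed transcripts was not taken. The transcript with most reads of each of the 16 genes was lower by choice. Many of the 52 share reads, as they hold 41 distinct sets of counts.

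The sequence before the gene start was read from RefSeq promoters of the rat assembly GRCr8 for 36 gene starts of 34 of the 44 genes, over the 250 bases before the start. These sequences were rich in G and C, with a median of 65.4%, against 60.0% for the 135 starts of other listed genes with at least 100 reads and 51.2% for all 33469 starts. On both strands, a GC box (GGGCGG), the site of SP factors, was found in 25 of 36 (69.4%), against 51.1% and 30.5%. An EGR site (GCGNGGGCG), which can overlap a GC box, was found in 7 (19.4%), against 6.67% and 4.29%. The cAMP response element (CRE, TGACGTCA) was found in 2 (5.56%), against 2.96% and 1.59%, and its half-site (TGACG), which the whole element contains, in 9 (25.0%), against 30.4% and 18.2%. A CCAAT box (CCAAT) was found in 11 (30.6%), against 40.0% and 34.0%, a TATA box (TATAAA) in 2 (5.56%), against 7.41% and 12.9%, and an E-box (CANNTG) in 18 of 36, against 60.7% and 65.5%. The 135 starts held 20 of other genes with a lower fluoxetine mean, with a median G and C content of 60.4%. Of these 20, 9 had a GC box, 2 an EGR site, 1 a CRE and 3 its half-site. A CCAAT box was found in 9 of the 20, a TATA box in 5 and an E-box in 10. The share with an E-box was thus the same as in the 36 starts, and the share with a CRE was close, on 1 start. GC box and EGR site are themselves made of G and C, and the part of base composition in their shares was not tested. A match describes the letters alone.

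**Figure D5:**
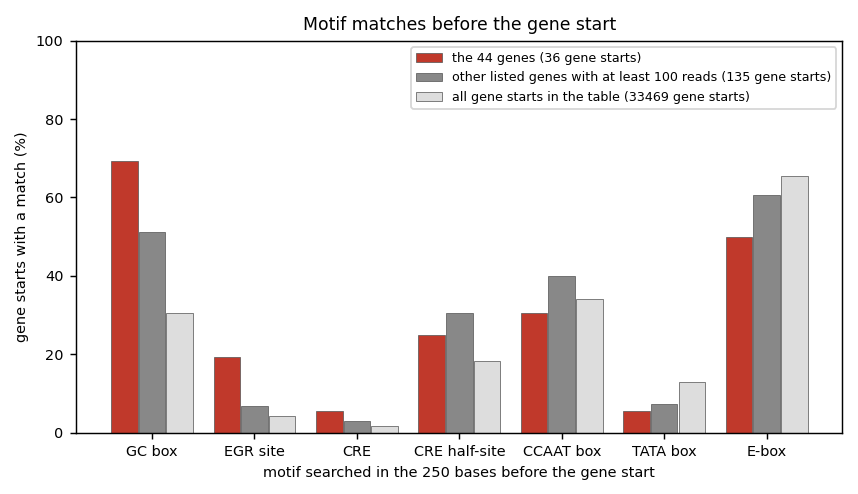
Share of gene starts (%) with a match to each motif in the 250 bases before the start, for the 36 starts of the 44 genes (red), 135 starts of other listed genes with at least 100 reads (dark grey) and all 33469 starts of the table (light grey). Among the sets drawn, the red bar is the highest for the GC box, the EGR site and the CRE, and the lowest for the CCAAT box, the TATA box and the E-box. Other genes with a lower fluoxetine mean are part of the dark grey set and are not drawn apart.

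The 4 promoters below are examples, each 5′ to 3′ on the strand of its gene with the named motif in capitals and matches to other motifs left unmarked. They are the 2 with a whole CRE, Slc25a25 at chr3:36116582-36116831 on the minus strand, 158 bases before the start, and Fstl4 at chr10:37412038-37412287 on the plus strand, 28 bases before it. With them stand the 2 genes with most reads, Lhx2 at chr3:42535494-42535743 on the plus strand, with GC boxes at 26, 64, 170 and 217 bases, and Slc23a2 at chr3:139847344-139847593 on the minus strand, with an EGR site at 126 bases. Slc25a25 had a log2 fold change of -1.17, Fstl4 of -0.93, Lhx2 of -0.91 and Slc23a2 of -0.88.
Slc25a25: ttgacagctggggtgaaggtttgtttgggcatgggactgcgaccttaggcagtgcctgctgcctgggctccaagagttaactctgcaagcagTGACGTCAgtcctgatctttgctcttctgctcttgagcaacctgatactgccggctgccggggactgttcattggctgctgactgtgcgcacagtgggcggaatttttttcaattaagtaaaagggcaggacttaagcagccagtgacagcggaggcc
Fstl4: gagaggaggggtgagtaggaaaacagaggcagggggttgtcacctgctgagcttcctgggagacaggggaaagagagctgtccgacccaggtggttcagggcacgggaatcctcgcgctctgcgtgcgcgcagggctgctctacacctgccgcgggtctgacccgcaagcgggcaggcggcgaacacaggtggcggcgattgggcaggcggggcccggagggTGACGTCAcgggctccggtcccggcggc
Lhx2: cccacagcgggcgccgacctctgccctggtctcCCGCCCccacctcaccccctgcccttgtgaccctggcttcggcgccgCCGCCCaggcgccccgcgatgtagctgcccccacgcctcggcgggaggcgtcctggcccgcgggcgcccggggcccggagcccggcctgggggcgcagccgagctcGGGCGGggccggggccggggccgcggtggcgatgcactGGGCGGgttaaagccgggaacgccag
Slc23a2: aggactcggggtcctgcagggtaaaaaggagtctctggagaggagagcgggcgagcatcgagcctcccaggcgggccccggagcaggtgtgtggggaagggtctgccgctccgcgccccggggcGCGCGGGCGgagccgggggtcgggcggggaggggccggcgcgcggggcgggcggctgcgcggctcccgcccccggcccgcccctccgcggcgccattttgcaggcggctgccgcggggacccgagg
The promoter of Slc25a25 has a G and C content of 54.4%, and that of Lhx2 one of 80.8%. Over the 36 starts this content ran from 37.6% (RGD1309873) to 84.8% (Chsy1). Further EGR matches were before Chsy1, Dusp16, Tmie, RGD1564641, Rasa4 and Zic2.

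How far the values hold without 1 sample was read for each gene. The log2 fold change of all 44 genes stayed under 0 without each of the 4 samples in turn. The lack of overlap between the groups all but fixes this, so it is no check of the direction. The distance between the highest and the lowest of these fits had a median of 0.66. Leaving out 1 sample moved the fold by over 1.5 times in 13 of the 44 genes, whose values are given with each gene. At a log2 fold change under -1 stood 38 of the 44 genes at TMM and 29 of 44 at the library totals.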

How the data were processed

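RNA-seq of rat hippocampus was measured in 4 samples, 2 per group, and groups were taken from the sample titles. The authors ran 36 bp single-read sequencing (Illumina Genome Analyzer IIx). Alignment to rn4 allowed 1 mismatch, only uniquely placed reads were used, and Genomatix software counted reads over exons. The deposited read counts are not normalized. The deposited NE is a signal that the authors scaled to transcript length and to the size of each library. Only transcripts past the authors' thresholds are in the table, which can enlarge differences. The authors' deposited p-values, from DESeq, and log2 fold changes, from NE, were not used, nor were their means and SDs. A read can count for several models of a gene.

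Library totals were recovered from NE and the counts. Log2 fold changes came from edgeR 4.0.16 in R 4.3.3 (TMM, glmQLFit, all 830 transcripts, no filter, treatment only, common dispersion 0.268). The fit was also run on simulated data, but with a dispersion well under 0.268 and as many raised as lowered transcripts. That run is therefore no check of the standard errors or of the scaling here. Each standard error was calculated as the size of the log2 fold change divided by the square root of the F statistic of the fit to the data. DESeq2 1.42.0 was the alternative. A RefSeq table of GRCr8, used for names, held a current symbol for 42 of the 44 genes. Tallies used Python 3.11.15, pandas 2.3.3 and scipy 1.17.1, with exact 95% binomial intervals.

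The genes, roles, 13 marker lists and 6 pathway lists were chosen with earlier results of these data known. The result of 1 pathway list is not reported here. All 44 genes are named, with the reads of each sample for the 15 with most reads and the 15 with the lowest log2 fold change. Genes outside the 44 are named where a count of list members or an edge of the choice needed them. Each sample pools different rats, but with 2 samples per group the spread is poorly estimated.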

Additional observations from a re-analysis of the deposited data

How the results depend on the processing

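The number of genes chosen was 44 with at least 100 reads, 66 with at least 50 and 25 with at least 200. With the longest listed transcript of each gene 43 genes were found, and with the sum over transcripts of different counts 48, which held 43 and 44 of the 44 genes. All 44 kept their order at TMM and at DESeq2 size factors. At NE and at the library totals, by which NE is scaled, the choice of the genes fixed the order. The median log2 fold change of -1.23 was -1.12 at the library totals, -1.18 with a filter on low counts and -1.18 in DESeq2, and with 1 sample left out it lay between -1.35 and -1.05, where the lone sample of a group was assumed to vary like the other group. The cause of these shifts was not tested beyond the change of scaling or samples itself. With the replicate number as a block it was -1.24. The numbers 1 and 2 are not stated to pair the samples, but the differences between sample 1 and sample 2 had a correlation of 0.65 between the groups over 380 listed transcripts with at least 100 reads and of 0.33 over the 44 genes. Over 352 values of single genes under these alternatives, 0 reversed, which the choice of genes without overlap largely fixes. Of the 352, 46 moved by more than the SD between replicates, and of 44 values of marker lists at TMM 8 did so. For the genes with fewest reads, near 100 over 4 samples, the precision is at best that of the counting interval given for Tanc1. That interval leaves out the spread between samples.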
